A study of Mus musculus with 4 samples.

Results

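The 500 largest stitched H3K27ac domains of mouse salivary gland epithelial progenitor cells are described here. A stitched domain is a run of H3K27ac peaks in which each gap between neighbours is at most 12500 bases, and its sum is the added width of its peaks. The 183757 H3K27ac peaks formed 53052 domains, and the 500 with the largest sums were taken. The H3K27ac peaks alone chose them, so their sums, spans and peak numbers are a description, whereas the p63 peaks had no part in the choice. The domains come from ChIP-seq, sequencing of chromatin precipitated with an antibody, on primary epithelial progenitor cells from the salivary glands of adult mice aged 12 weeks. All 4 libraries came from mice of wild-type p63 genotype: a p63 ChIP with the monoclonal antibody 4A4, an H3K27ac ChIP, and an input without antibody for each. There were no replicates, the depth of the libraries is unknown, and the lists hold no expression values, so the labelled cell type was not checked against marker genes. Intervals below are 95% intervals that cover counting error only and treat p63 peaks as independent. No p-value is given, since domains of 1 library are not replicates.

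H3K27ac is laid down on nucleosomes at active promoters and enhancers. Where such sites crowd together over a long stretch the cluster is often called a super-enhancer, and such clusters are known for lying near genes that define a cell type. p63, a p53 family member, is the main regulator of basal and progenitor cells of stratified and glandular epithelia, and in skin keratinocytes it binds mainly at distal enhancers. Transcription factors usually contact DNA that is free of nucleosomes, so acetylated nucleosomes commonly stand on both sides of a bound site. Super-enhancers are normally ranked by ChIP signal. The peak lists hold only positions, so the domains could be ranked by acetylated bases only, and they are called the largest domains below. They were placed by their mm9 coordinates, counted from 1. No mm9 gene annotation or genome sequence was used, so no gene, promoter or sequence is assigned to a domain.

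The 500 largest domains made up 0.942% of all domains and held 17.96% of all bases in H3K27ac peaks, 11.9% of the H3K27ac peaks and 10.3% of the length spanned by domains. Their sums ran from 10.2 to 55.8 kb, with a median of 14.9 kb (quartiles 12.1 and 19.8), while the other 52552 domains had a median of 0.328 kb, and 24519 of all domains were a single peak. Spans ran from 14.2 to 286 kb, with a median of 99.8 kb in the largest domains and 1.44 kb in the others. A largest domain joined a median of 40 H3K27ac peaks (range 8 to 127), against 2 in the others. These peaks lay closer together: the median gap between neighbours was 775 bases (quartiles 226 and 2967) in the largest domains and 2849 bases (quartiles 692 and 6420) in the others. Even so, most of a largest domain was gap. Its peaks covered a median of 15.5% of the span, from 5.85 to 81.7%.

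**Figure D1:**
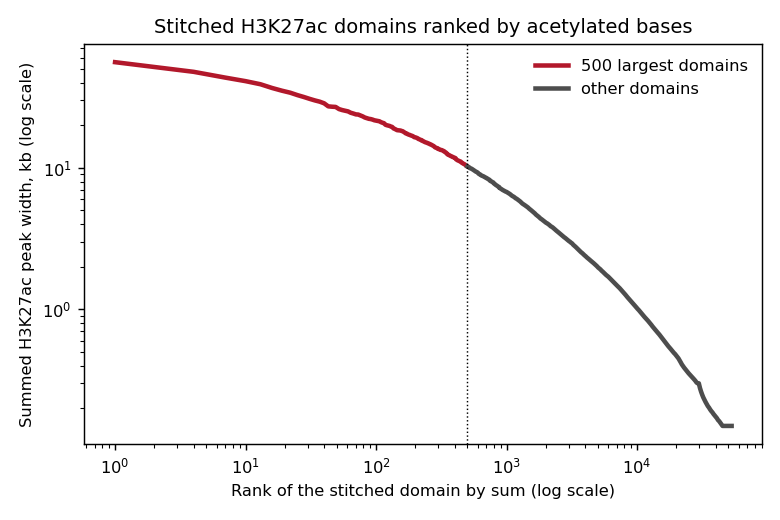
Summed width of H3K27ac peaks per stitched domain (kb, log scale) against the rank of the domain (log scale), with the 500 largest in red, the other domains in grey and a dotted line at the boundary. The curve passes the boundary, between 10.231 and 10.229 kb, without a step.

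The boundary of the group fell at no break in the data. The 3 smallest members summed to 10252, 10242 and 10231 bases, and the 3 largest domains outside to 10229, 10223 and 10217 bases. The point where the scaled curve of sum against rank has a slope of 1, a usual cut for super-enhancers, lay at 2579 domains and a sum of 3401 bases, so the 500 domains lie well inside it. The domains also differed among themselves in build. The longest was chr10:79371386-79657568, with 126 H3K27ac peaks over 286 kb, of which 19.0% was covered. The shortest was chr12:58634017-58648180, with 13 peaks over 14.2 kb, of which 74.1% was covered. In the median largest domain the widest H3K27ac peak measured 1912 bases and gave 11.6% of the sum, and in the most lopsided domain it gave 60.9%. Wide peaks were common in the group: 334 of 21791 H3K27ac peaks (1.53%) measured 2000 bases or more, against 168 of 161966 (0.104%) in the other domains, and peaks of 500 bases or more gave 51.4% of the acetylated bases, against 19.8%.

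p63 was present in most of the largest domains. Of the 500, 342 (68.4%, Wilson interval 64.2 to 72.3%) held a p63 peak, counted as inside with 1 shared base, against 1941 of 52552 other domains (3.69%, interval 3.54 to 3.86%), and over all domains the share was 4.3%. The difference was 64.7 percentage points (interval 60.5 to 68.6). The largest domains held 666 p63 peaks, or 1.33 each (Poisson interval 1.23 to 1.44), and the others 2242, or 0.0427 each. Thus 16.1% (Wilson interval 15.0 to 17.3%) of the 4130 p63 peaks lay in the largest domains. The 4130 include 1222 that lay in no domain, whereas all acetylated bases lie in domains. Of the 2908 p63 peaks in any domain, 22.9% (interval 21.4 to 24.5%) lay in the largest, beside the 17.96% of acetylated bases given above. The share of all p63 peaks depends on how the group is cut: it was 9.08% with peaks joined at most 5000 bases apart, 10.1% in the 250 largest domains and 24.8% in the 1000 largest.

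The p63 peaks were spread over many of the largest domains rather than gathered in a few. There were 158 domains with no p63 peak, 154 with 1, 100 with 2, 57 with 3, 19 with 4, 8 with 5, 3 with 6 and 1 with 7. Domains with at least 3 made up 17.6% of the group (88 of 500), against 0.078% of the other domains (41 of 52552), and 0.243% of all domains. No domain outside the group held more than 4. Within the group, domains with 3 or more p63 peaks had a median sum of 18431 bases and a median span of 114 kb, and domains without p63 a median sum of 12851 bases and a median span of 93.1 kb. Across the 500 domains the number of p63 peaks went with the sum (Spearman rho 0.33, Pearson r 0.32) and the number of H3K27ac peaks (rho 0.28, r 0.30) more than with the span (rho 0.19) or the width of the widest H3K27ac peak (rho 0.15), and hardly with the share of the span covered (rho 0.05). These correlations describe domains of the same libraries and carry no test.

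A domain that is longer and holds more acetylated bases has more room for p63, so p63 peaks were also counted per length. Per Mb of span, the largest domains held 12.4 p63 peaks (Poisson interval 11.5 to 13.4) and the others 4.82 (interval 4.62 to 5.02), a ratio of 2.58 (exact interval 2.36 to 2.81). Per Mb of H3K27ac peaks, the largest domains held 77.3 (interval 71.5 to 83.4) and the others 56.9 (interval 54.6 to 59.3), a ratio of 1.36 (interval 1.24 to 1.48). Set against the other domains of 2 or more peaks, the ratio per Mb of H3K27ac peaks was 1.20 (interval 1.102 to 1.31). The groups therefore differed far less in p63 peaks per Mb of H3K27ac peaks than in p63 peaks per domain. These rates count every p63 peak of a domain, also those in gaps, over the length of its H3K27ac peaks. Midpoints on the H3K27ac peaks alone stood at 29.1 per Mb in the largest domains and 13.3 in the others.

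The smallest domains carried the low rate outside the group. Per Mb of H3K27ac peaks, p63 stood at 66.0 in the domains ranked 1 to 100, 77.97 in ranks 101 to 200, 103 in ranks 201 to 300, 79.1 in ranks 301 to 400 and 68.5 in ranks 401 to 500. Outside the group it was 87.8 in ranks 501 to 1000, 78.6 in ranks 1001 to 2000, 73.0 in ranks 2001 to 5000, 67.0 in ranks 5001 to 10000, and 26.3 in the 43052 domains after those. The rate counts p63 peaks in gaps, but the domains of that last class had a median of 1 H3K27ac peak. A domain of 1 peak has no gap, so the rates of small and large domains are not quite alike. How much of the low rate follows from this was not tested. The intervals of ranks 1 to 100 (57.0 to 76.0) and 501 to 1000 (78.9 to 97.3) did not overlap, with the lower rate in the 100 largest. The share of domains with p63, in contrast, was lower towards later ranks, apart from the classes on either side of the boundary: it was 82.0% in ranks 1 to 100, 46.0% in ranks 401 to 500, 48.4% in ranks 501 to 1000 and 0.873% in the last class.

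**Figure D2:**
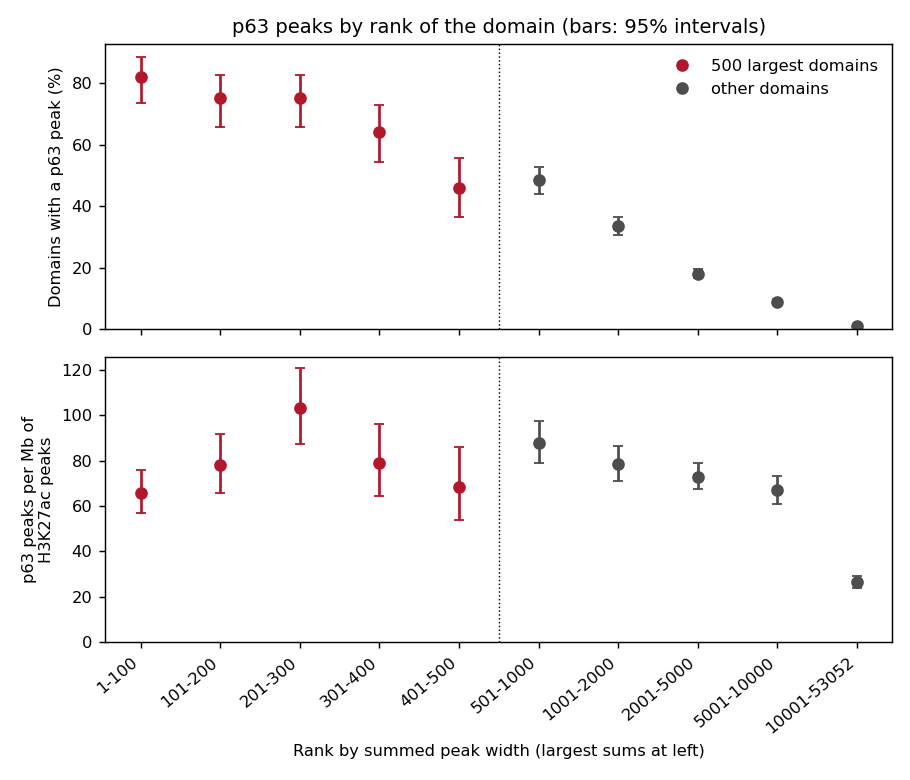
Share of domains with a p63 peak (upper panel, %, Wilson 95% intervals) and p63 peaks per Mb of H3K27ac peaks (lower panel, Poisson 95% intervals) by rank class, largest sums at the left, with the 500 largest domains in red and the others in grey. The share is 82.0% at ranks 1 to 100 and 0.873% in the last class, whereas the rate stays between 66.0 and 103 per Mb down to rank 10000 and is 26.3 after it.

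No other domain can have a larger sum than a member, so domains of nearly equal sum exist only at the boundary. There the 100 members of smallest sum (10.2 to 11.8 kb) held 75 p63 peaks, and 46 of them held at least 1. The 100 domains just outside (9.25 to 10.2 kb) held 69, and 50 of them held at least 1. Per Mb of H3K27ac peaks the ratio was 0.966 (exact interval 0.687 to 1.36), and the difference in the share with p63 was -4 percentage points (interval -17.5 to 9.68). Both intervals leave room for differences of some size either way.

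A second comparison took the same acetylated length from the next domains. The 1335 domains that follow in rank together held 8.62 Mb of H3K27ac peaks, as the 500 largest did. Gaps included, the 500 largest held 666 p63 peaks and these 1335 held 724. On the H3K27ac peaks alone, midpoints stood at 29.1 per Mb (interval 25.6 to 32.95) in the largest domains. In the next 1335 they stood at 25.2 (interval 21.9 to 28.7), and these intervals overlapped. The ratio of the rates with gaps included was 0.920 (exact interval 0.827 to 1.02), which includes 1. It lay above 1 where the group was the 1000 largest (1.08) or was ranked by span (1.04), with intervals that included 1. Its interval lay below 1 under 3 settings: peaks joined at most 20000 bases apart (0.891, interval 0.817 to 0.972), the narrowest H3K27ac peaks left out (0.892, interval 0.797 to 0.998) and only the first 91878 H3K27ac peaks of the list (0.878, interval 0.777 to 0.991). Per Mb of span the 500 largest were higher, 12.4 against 9.07 (ratio 1.37, interval 1.23 to 1.52), since their H3K27ac peaks covered 16.1% of the span and those of the next domains 10.8%. A log-linear description of p63 number on sum, fitted to the domains ranked 501 to 10000, gave 809 p63 peaks for the sums of the 500 largest. The observed 666 were 0.823 of that (Poisson interval of the count 0.762 to 0.888). Fitted to all other domains it gave 1289, of which the observed number was 0.517. Both fits ended below the sums of the 500 largest, so these counts are extrapolations. The interval leaves out the error of the fit.

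Domains with like sums can be long and sparse or short and dense, and in neither part of the group did the interval of the ratio between these exclude 1. Among ranks 1 to 250, the 125 of longer span (median 162 kb) held 228 p63 peaks, and the 125 of shorter span (median 87.1 kb) 191, a ratio of 1.19 (exact interval 0.981 to 1.45). The longer ones also had the higher median sum, 21.6 kb against 18.4 kb. Among ranks 251 to 500, where median sums were nearer (12.2 and 12.0 kb), the 125 longer domains held 137 and the 125 shorter ones 110, a ratio of 1.25 (interval 0.962 to 1.62). Grouped by the share of the span covered, the 125 most densely covered of the 500 domains held 66.4 p63 peaks per Mb of H3K27ac peaks (interval 56.8 to 77.1), and the 125 most sparsely covered ones held 81.4 (interval 68.7 to 95.8), so the intervals overlapped.

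Inside the domains, p63 lay on or beside the H3K27ac peaks. Of the 666 p63 peaks in the largest domains, 431 (64.7%, Wilson interval 61.0 to 68.3%) overlapped an H3K27ac peak, against 1008 of 2242 (45.0%, interval 42.9 to 47.0%) in the other domains, a difference of 19.8 percentage points (interval 15.5 to 23.8). Against the next 1335 domains, where it was 53.0%, the difference was 11.7 points (interval 6.50 to 16.8). H3K27ac peaks also covered more of the total span of the largest domains, 16.1%, against 10.8% in the next 1335 and 8.47% in the other domains. When domains were ranked by span, the difference from the other domains was 7.01 points. Overlap here means at least 1 shared base. By midpoint, 251 of the 666 (37.7%, interval 34.1 to 41.4%) lay on an H3K27ac peak, so most midpoints lay in gaps. The share by midpoint was 23.4% in the other domains and 30.0% in the next 1335. Within 1000 bases of an H3K27ac peak lay 624 of the 666 (93.7%, interval 91.6 to 95.3%), against 85.8% of the p63 peaks in the other domains. In the next 1335 it was 89.6% (interval 87.2 to 91.7%), and this interval overlaps that of the largest domains. The share of the span that lies this near to an H3K27ac peak was not computed.

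The p63 peaks that missed the H3K27ac peaks missed them narrowly. In the largest domains 235 p63 peaks overlapped none, and their median distance to the nearest was 138 bases, against 257 bases in the other domains and 195.5 in the next 1335. Of these 235, 112 (47.7%, interval 41.4 to 54.0%) were flanked by H3K27ac peaks at most 1000 bases away to the left and to the right, against 359 of 1234 (29.1%, interval 26.6 to 31.7%) in the other domains. In the next 1335 domains it was 128 of 340 (37.6%, interval 32.7 to 42.9%), which overlaps the interval of the largest domains. The largest domains were chosen by their H3K27ac peaks, whose median gap was 775 bases, against 2848.5 in the others. How far this closer spacing alone sets these distances and shares was not tested. Short gaps were the places of highest p63 density. In gaps under 500 bases the largest domains had 199 p63 midpoints in 1.91 Mb, or 104 per Mb (Poisson interval 90.0 to 119), against 73.7 per Mb (interval 66.5 to 81.5) in the other domains and 94.8 (interval 81.2 to 110) in the next 1335. On the H3K27ac peaks themselves the densities were 29.1 per Mb (interval 25.6 to 32.95) in the largest domains, 25.2 in the next 1335 and 13.3 (interval 12.2 to 14.5) in all other domains. In gaps of 5000 to 12500 bases it was 2.92 per Mb (interval 2.28 to 3.67) in the largest domains, 2.94 (interval 2.46 to 3.49) in the next 1335 and 1.94 (interval 1.78 to 2.1) in all other domains. Such long gaps made up 24.7 of the 53.6 Mb spanned by the largest domains and held 72 of their 666 p63 midpoints.

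**Figure D3:**
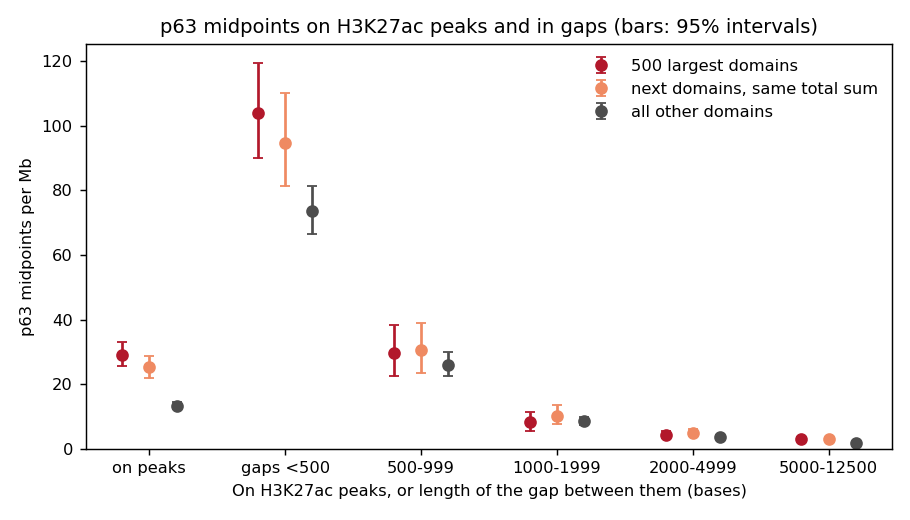
p63 midpoints per Mb (Poisson 95% intervals) on H3K27ac peaks and in gaps between them by gap length in bases, for the 500 largest domains (red), the next 1335 domains of the same total sum (orange) and all other domains (grey). In each group gaps under 500 bases have the highest density, 104 per Mb in the 500 largest, and the gaps from 5000 bases up have the lowest.

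In 3 of 6 width classes, H3K27ac peaks of the largest domains carried p63 more often than those of the other domains, with intervals that did not overlap. Among H3K27ac peaks of 1000 to under 2000 bases, 123 of 1109 in the largest domains (11.1%, Wilson interval 9.38 to 13.1%) shared a base with p63, against 97 of 1902 in the other domains (5.10%, interval 4.199 to 6.18%), a difference of 5.99 points (interval 3.96 to 8.17). In the next 1335 domains the share was 7.13% (63 of 884, interval 5.61 to 9.01%), below the interval of the largest domains. Median widths in this class were 1289, 1286 and 1237 bases in the largest, the next and all other domains. At 2000 bases or more it was 17.7% (59 of 334, interval 13.9 to 22.1%), against 11.9% (20 of 168, interval 7.84 to 17.7%), and the intervals overlapped. The other classes with separate intervals were 500 to under 1000 bases (4.96% against 3.54%) and 200 to under 300 bases (0.868% against 0.423%). From 300 to under 500 bases (2.02% against 1.73%) and under 200 bases (0.358% against 0.238%) the intervals overlapped. Set against the next 1335 domains, the intervals were separate only in the class from 1000 to under 2000 bases. Of the widest H3K27ac peaks of the 500 largest domains, 61 (12.2%, interval 9.62 to 15.4%) carried p63. The share was 9.16% over the 5 widest of each domain and 2.21% (482 of 21791) over all their H3K27ac peaks.

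**Figure D4:**
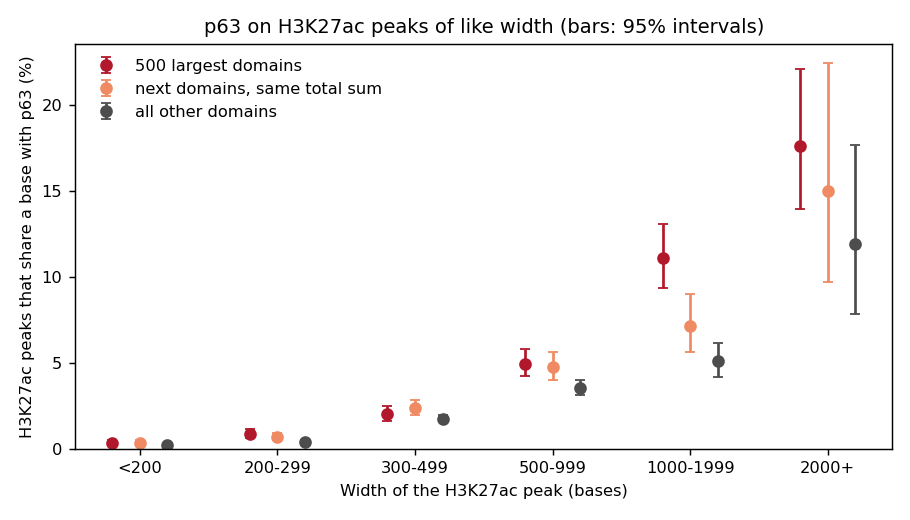
Share of H3K27ac peaks that share a base with a p63 peak (%, Wilson 95% intervals) by width of the H3K27ac peak in bases, for the 500 largest domains (red), the next 1335 domains (orange) and all other domains (grey). The share climbs with width in each group, and from 1000 to under 2000 bases it is 11.1% in the largest domains and 5.10% in all other domains.

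The 10 domains with the largest sums held between 0 and 5 p63 peaks. The domain at chr1:137715036-137881375 had the largest sum, 55.8 kb in 95 H3K27ac peaks over 166 kb, and 3 p63 peaks, of which 2 overlapped H3K27ac peaks. The next, the long domain on chromosome 10 described above, had a sum of 54.3 kb and 1 p63 peak, on its widest H3K27ac peak of 2396 bases. The domain at chr12:81197786-81392963 (sum 49.4 kb) held 2 p63 peaks. The domain at chr15:77594920-77721926 (47.7 kb) held 4, of which 1 overlapped an H3K27ac peak and 3 lay 16, 48 and 95 bases from the nearest. The domain at chr5:125509740-125695412 (47.6 kb) held 3, and that at chr17:31950915-32142455 (43.5 kb) held 5. Further down came chr13:63312208-63433698 (43.4 kb) with 1, chr11:116932203-117212430 (42.9 kb) with 2, and chr7:29676713-29776036 (42.6 kb) with 3, all of them on H3K27ac peaks. The tenth, chr8:87209420-87327391 (41.0 kb), held none. Among these 10 the number of p63 peaks did not follow the order of the sums.

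The domain richest in p63 was short in span and dense. It lay at chr1:195320132-195353426, ranked 228 by sum, and joined 19 H3K27ac peaks over 33.3 kb, of which 46.5% was covered. Its 7 p63 peaks lay 14.5, 20.2, 20.6, 24.2, 26.2, 28.4 and 32.7 kb from its start. The first was on the widest H3K27ac peak, of 3582 bases, and the last missed an H3K27ac peak by 150 bases, while the other 5 overlapped peaks of 426 to 2696 bases. Per Mb of H3K27ac peaks this domain held 452 p63 peaks, against 77.3 over all 500. It was named for its p63 number, so a high rate follows in part from the choice.

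The other domains named for their p63 number were longer. The domain at chr2:157193323-157315491 (rank 14, sum 37.7 kb over 122 kb) held 6 p63 peaks, of which 4 overlapped H3K27ac peaks. Its widest p63 peaks, of 345 and 331 bases, stood 43.9 and 67.1 kb from its start, each on an H3K27ac peak. The domain at chr12:71644923-71758586 (rank 96) held 6, of which 5 overlapped H3K27ac peaks. The domain at chr9:14348238-14495739 (rank 157) also held 6, but 2 of these overlapped H3K27ac peaks and 1 lay 5157 bases from the nearest. Those with 5 p63 peaks were chr17:31950915-32142455, chr14:26265646-26528980, chr3:121995542-122239395, chr7:30147990-30320216, chr11:76028539-76236453 and chr8:125447233-125639958, taken by larger sum from 8 such domains. Of their p63 peaks, 1, 4, 2, 3, 2 and 3 overlapped H3K27ac peaks, in this order. In the first of them the other 4 lay 22 to 267 bases from an H3K27ac peak.

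**Figure D5:**
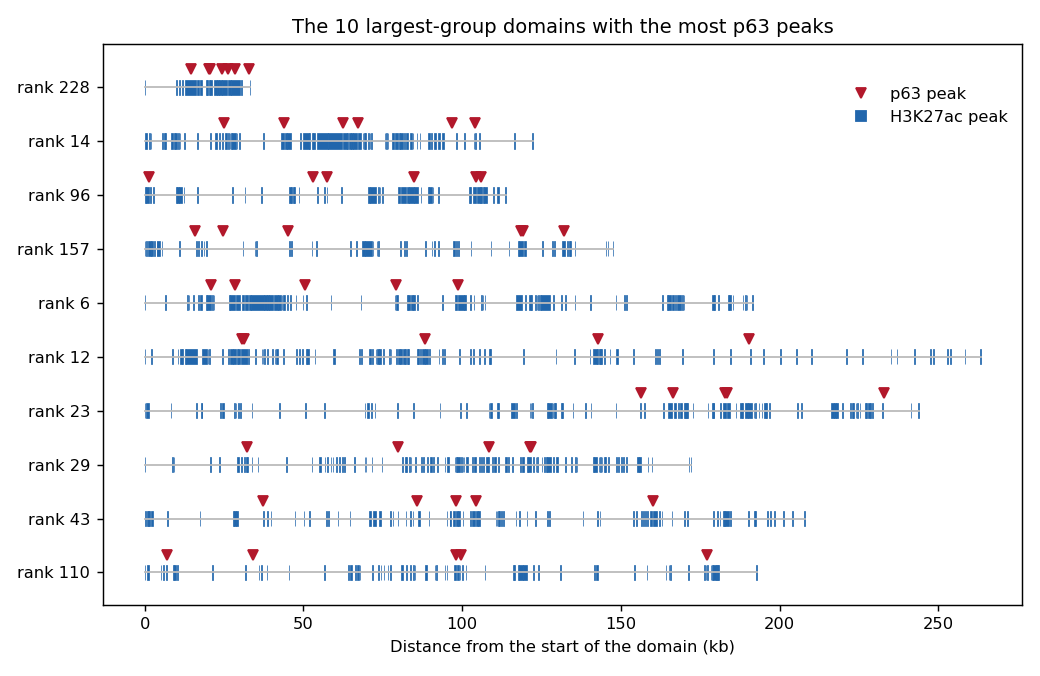
H3K27ac peaks (blue) and p63 peaks (red triangles) of the 10 domains with the most p63 peaks, by distance from the start of the domain (kb), named by rank of sum. The domain of rank 228 spans 33.3 kb and holds 7 p63 peaks, and the others span 114 to 263 kb and hold 5 or 6.

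Some of the largest domains held no p63 peak of the list, and the distance to the nearest one varied widely. The 5 of largest sum without p63 were chr8:87209420-87327391, chr8:113260859-113373970, chr17:35908020-36056623, chr2:25013038-25175094 and chr10:80497960-80700983. Their sums were 41.0, 34.4, 27.8, 27.06 and 27.04 kb, and their nearest p63 peaks were 28.3, 130, 21.1, 381 and 46.1 kb away. Each joined between 56 and 78 H3K27ac peaks. The shortest of the 500 domains, on chromosome 12, was also without p63, with the nearest 321 kb away. At the boundary, the 3 smallest members held 3, 1 and 1 p63 peaks and the 3 largest domains outside held 0, 1 and 0, and none of these overlapped an H3K27ac peak.

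The largest domains were unevenly placed among chromosomes. Chromosome 7 had 53, chromosome 11 had 49, chromosome 4 had 41 and chromosome 15 had 39. Per Mb of the length between its first and last peak, chromosome 11 had the most, 0.413, followed by chromosome 19 with 0.396 and chromosome 15 with 0.389. Chromosome 18 had 5 domains, or 0.0571 per Mb, the lowest density of an autosome. The domains of chromosome 15 held 30.7% of its acetylated bases and those of chromosome 18 held 5.74%. On the autosomes, p63 peaks per Mb of H3K27ac peaks in these domains ran from 45.3 on chromosome 10 to 115 on chromosome 16, where the 9 domains held 16 p63 peaks. Chromosome X had 3 of the 500 domains, all without p63, and 3 domains are too few to compare.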

How the data were processed

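The authors' deposited files are 2 peak lists of 3 columns (chromosome, start, end), with no score, height or p-value, each made from 1 ChIP library against 1 input. Per the submitters' processing notes, the tools included Bowtie 1.1.1 and MACS2 2.1.0 and the build was mm9. Their settings and threshold are not stated in the sources used here. Looser calling lengthens a list and widens its peaks, which changes which domains form. On chromosome 7, 1072 H3K27ac peaks lay past the last GRCm38 gene, so that table's positions were not used. The planned steps on genes, promoters, sequences and motifs were left out.

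H3K27ac peaks at most 12500 bases apart were joined and ranked by summed width. There was no tie at the boundary. A p63 peak counted as inside with 1 shared base, and by midpoint in gaps. Joining and counting were checked on parts of the real lists against a simpler calculation. Only the intervals of rate ratios were tested on simulated counts. Shares carry Wilson, rates exact Poisson and ratios exact conditional 95% intervals. Differences of shares carry Newcombe intervals. The domains and the named ones (by sum, p63 number, lack of p63, boundary, span) were chosen with earlier results of these data known. Tools were Python 3.11.15 with statsmodels 0.14.6, matplotlib 3.10.9, scipy 1.17.1, pandas 2.3.3 and numpy 2.4.6.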

Additional observations from a re-analysis of the deposited data

How the results depend on the processing

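Of 72 alternatives over 7 results, 42 stayed inside the 95% interval of the value reported, 30 moved outside it and 0 turned a direction whose interval excluded no difference. The 12 alternatives for the share of all p63 peaks had no direction to turn. The 12 for the ratio to the next domains could not be counted as turned, since its interval included 1. The difference in the share of domains with p63 (64.7 points) was 47.4 with peaks joined at most 5000 bases apart, 76.7 at 20000, 57.8 ranked by span, 73.6 for the 250 and 55.1 for the 1000 largest, 53.8 with the first 91878 peaks of the H3K27ac list and 45.1 with the 2065 widest p63 peaks. The ratio per Mb of span (2.58) was 2.29 at 5000, 2.30 at 20000, 1.84 by span, 2.26 without the 39798 narrowest H3K27ac peaks and 1.92 with the first 91878. It was 2.32 with domains widened by 1000 bases on each side for counting p63 peaks, over the span left unwidened. The ratio per Mb of H3K27ac peaks (1.36) was 1.52 at 5000, 1.19 at 20000, 1.51 for the 1000 largest, 1.22 when widened, 1.20 with domains of 2 or more peaks and 1.19 with the first 91878. The ratio to the next domains of the same total sum (0.920) was 1.04 by span and 1.08 for the 1000 largest, with intervals that included 1, and its interval lay below 1 at 20000 (0.891), without the narrowest (0.892) and with the first 91878 (0.878). The share of all p63 peaks (16.1%) was 9.08 at 5000, 23.7 at 20000, 14.02 by span, 10.1 for the 250 and 24.8 for the 1000 largest, 14.4 without the narrowest and 12.2 with the first 91878. The difference in overlap with H3K27ac peaks (19.8 points) was 7.01 by span and 14.3 by midpoint. The difference for H3K27ac peaks of 1000 to under 2000 bases ran from 4.10 to 6.82 points over 7 alternatives. Fewer or more domains change these values by construction, and the cause of the other shifts was not tested. The settings for that last result and for the widest p63 peaks were chosen after seeing the data. No paired analysis was possible because there was 1 library a group. With depth unknown, a domain without a p63 peak is not shown to lack p63.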

Other observations

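p63 was sparser just outside the largest domains than over their whole span. By the joining rule no H3K27ac peak lies within 12500 bases outside a domain. These flanks held 21 p63 midpoints in 12.5 Mb, or 1.68 per Mb (Poisson 95% interval 1.04 to 2.57). Inside there were 12.4 p63 peaks per Mb. Inner gaps of 5000 bases or more had 2.92 midpoints per Mb (interval 2.28 to 3.67), and this interval overlaps that of the flanks. The density outside all domains, where 1222 p63 peaks lay, was not computed. With each span cut into 10 equal parts, the share per part of the 666 p63 peaks ran between 8.71% and 12.5%, and the share of the bases in H3K27ac peaks between 8.82% and 11.5%, but the parts highest in each were not the same: the fifth held 11.5% of these bases and 9.91% of the p63 peaks, and the sixth 10.2% and 12.5%. Neighbouring p63 peaks in the same domain were a median of 18.1 kb apart (quartiles 6.08 and 35.8 kb), and 108 of 324 such pairs (33.3%) lay within 10 kb.

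H3K27ac peaks early in the list lay in the largest domains more often than those of the whole list. The order of the list is not explained in the sources used here. Of the first 1000 H3K27ac peaks listed, 306 (30.6%) lay in the 500 largest domains, and of the first 50000, 21.5%, against 11.9% of all H3K27ac peaks. Among the 500 domains, 223 had a peak among the first 1000, but the largest domains also join more peaks each. The same count was not made for the other domains. Within the group, 59 pairs of neighbouring domains were at most 100 kb apart, and no such count was made for the other domains.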
